A study of Drosophila melanogaster with 2 samples.

Results

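The 36 genes described here encode the proteins of the muscle fibre that build the sarcomere and make it contract. They were chosen by name and not by any measured value, though with earlier results of these data known. All 36 were found among the 13968 protein-coding genes of the annotation, Unc-89 under its synonym Obsc. By role, 9 belong to the thick filament, 16 to the thin filament, 9 to the Z-disc and its linkers, and 2 to calcium handling. Binding was measured by chromatin immunoprecipitation with sequencing (ChIP-seq) of Twist in whole Drosophila melanogaster embryos of mixed sex, aged 2 to 12 h. The embryos came from a transgenic line that stably expresses Twist with GFP at its C-terminus, and an antibody against GFP was used, although another label field names Twist itself as the antibody. The 2 biological replicates form 1 group, with no untagged, mutant or staged group beside it, so no difference between conditions was tested. All tissues contribute to whole embryos, and the number of cells in which a site is bound and the strength of binding per cell cannot be told apart.

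Twist is a basic helix-loop-helix transcription factor that sets up the mesoderm, from which all body muscle derives, and it binds E-boxes, the sites with the form CANNTG. Twist switches on Mef2, and the Mef2 protein in turn drives the genes of muscle differentiation, including many that encode sarcomere proteins. Contraction comes from myosin heads of the thick filament that pull on actin of the thin filament. Tropomyosin and troponin on the thin filament make this depend on calcium, which the ryanodine receptor releases and the SERCA pump takes back up. Z-discs anchor the thin filaments and link neighbouring sarcomeres.

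A site is given below by its summit, the point of highest signal in a peak, and it was assigned to a gene when it fell inside the annotated gene or at most 5 kb beyond either end. The sites came from the authors' 6516 thresholded peaks by irreproducible discovery rate (IDR), a measure of how well replicates rank the same peaks. Ranks count from 1, the highest signal of a list. The following sequences show 101 bp centred on a summit, from the plus strand of the Release 6 (dm6) assembly, 5′ to 3′. The first 8 are from the 11 summits at these genes that hold CATATG or CACATG, E-boxes known to be favoured by Twist, and show where these letters lie. The last is the strongest summit at a start of one of the genes themselves, added after its values were seen. Capitals mark CATATG and CACATG, the latter on either strand, and, in the Mf and Act87E promoters only, also the Mef2 motif.
Shared promoter of Nca and CG7646, upstream of fln (chr3L:19992062-19992162): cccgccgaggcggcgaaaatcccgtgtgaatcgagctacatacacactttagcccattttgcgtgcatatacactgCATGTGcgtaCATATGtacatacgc
TpnC73F promoter (chr3L:17045706-17045806): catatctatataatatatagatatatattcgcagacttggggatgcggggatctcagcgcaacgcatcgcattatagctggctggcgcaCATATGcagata
Mhc promoter (chr2L:16766197-16766297): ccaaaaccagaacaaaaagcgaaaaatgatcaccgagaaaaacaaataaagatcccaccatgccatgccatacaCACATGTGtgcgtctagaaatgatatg
Msp300 intron (chr2L:5113278-5113378): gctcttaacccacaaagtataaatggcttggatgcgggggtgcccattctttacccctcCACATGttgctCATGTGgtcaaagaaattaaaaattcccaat
Prm intron (chr3L:8743113-8743213): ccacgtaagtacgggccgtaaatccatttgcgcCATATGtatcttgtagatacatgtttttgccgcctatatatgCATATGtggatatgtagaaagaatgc
usp promoter inside Actn (chrX:2041423-2041523): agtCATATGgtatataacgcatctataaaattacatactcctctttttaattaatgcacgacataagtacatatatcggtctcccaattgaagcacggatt
Mf promoter (chr3R:15181200-15181300): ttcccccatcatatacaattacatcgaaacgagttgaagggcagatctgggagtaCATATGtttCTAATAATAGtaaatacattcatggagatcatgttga
Tm1 internal promoter (chr3R:15287864-15287964): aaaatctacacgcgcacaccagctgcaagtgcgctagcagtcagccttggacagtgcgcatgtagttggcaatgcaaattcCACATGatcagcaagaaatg
Act87E promoter (chr3R:13425746-13425846): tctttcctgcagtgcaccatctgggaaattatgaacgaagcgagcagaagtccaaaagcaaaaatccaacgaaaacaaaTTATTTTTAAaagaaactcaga

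CATATG or CACATG lay off the summit itself in each of the first 8 windows. In the Mf promoter the middle of CATATG was 7.5 bp from the summit, with a Mef2 motif centred 18.5 bp from it on the same side. The Msp300 intron held a pair of E-boxes at 11.5 and 22.5 bp. In the Prm intron, CATATG occurred on both sides, at −14.5 and 27.5 bp along the plus strand. The CACATGTG of the Mhc promoter is read as an E-box on both strands, so its 2 matches overlap. In the usp promoter inside Actn and in the TpnC73F promoter, the E-box lay near the edge of the window, at −44.5 and 41.5 bp.

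Of the 36 genes, 22 held an IDR summit (61.1%, 95% Wilson interval 44.9 to 75.2%), while 50.1% of all protein-coding genes did. The 22 genes held 39 distinct summits, and no summit was shared by any pair of them. The interval covers the counting of genes only, and it includes the background share. The median was 1 summit per gene for these genes and 1 for all protein-coding genes, and the means were 1.08 and 1.03. These genes are long, with a median length of 10.3 kb against 2.16 kb for all protein-coding genes. Among the 15 genes shorter than 5 kb, 7 held a summit (background 45.7%). Between 5 and 20 kb, 6 of 11 did (background 61.7%), and 9 of the 10 genes longer than 20 kb did (background 67.5%). Per 10 kb of gene and flanks, the 36 genes held 0.383 summits and all protein-coding genes 0.607. These densities are not alike: over all genes the windows of neighbours overlap, and a summit can count for several genes. Flanks also make up more of the window of a short gene. With windows of 5 kb the share of these genes with a summit thus lay near the background. With windows of 1 kb it did not: 19 of the 36 held a summit (52.8%, Wilson interval 37.0 to 68.0%), against 30.9% of protein-coding genes. Within classes of length, in a split added after the values were seen, 6 of 15 of the shortest genes held one within 1 kb (40.0%, 19.8 to 64.3%) against 24.6%. In the middle class 5 of 11 did (45.5%, 21.3 to 72.0%) against 45.8%, and among the longest 8 of 10 did (interval 49.0 to 94.3%) against 59.5%. The part that gene length has in the difference at 1 kb was not tested.

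**Figure D1:**
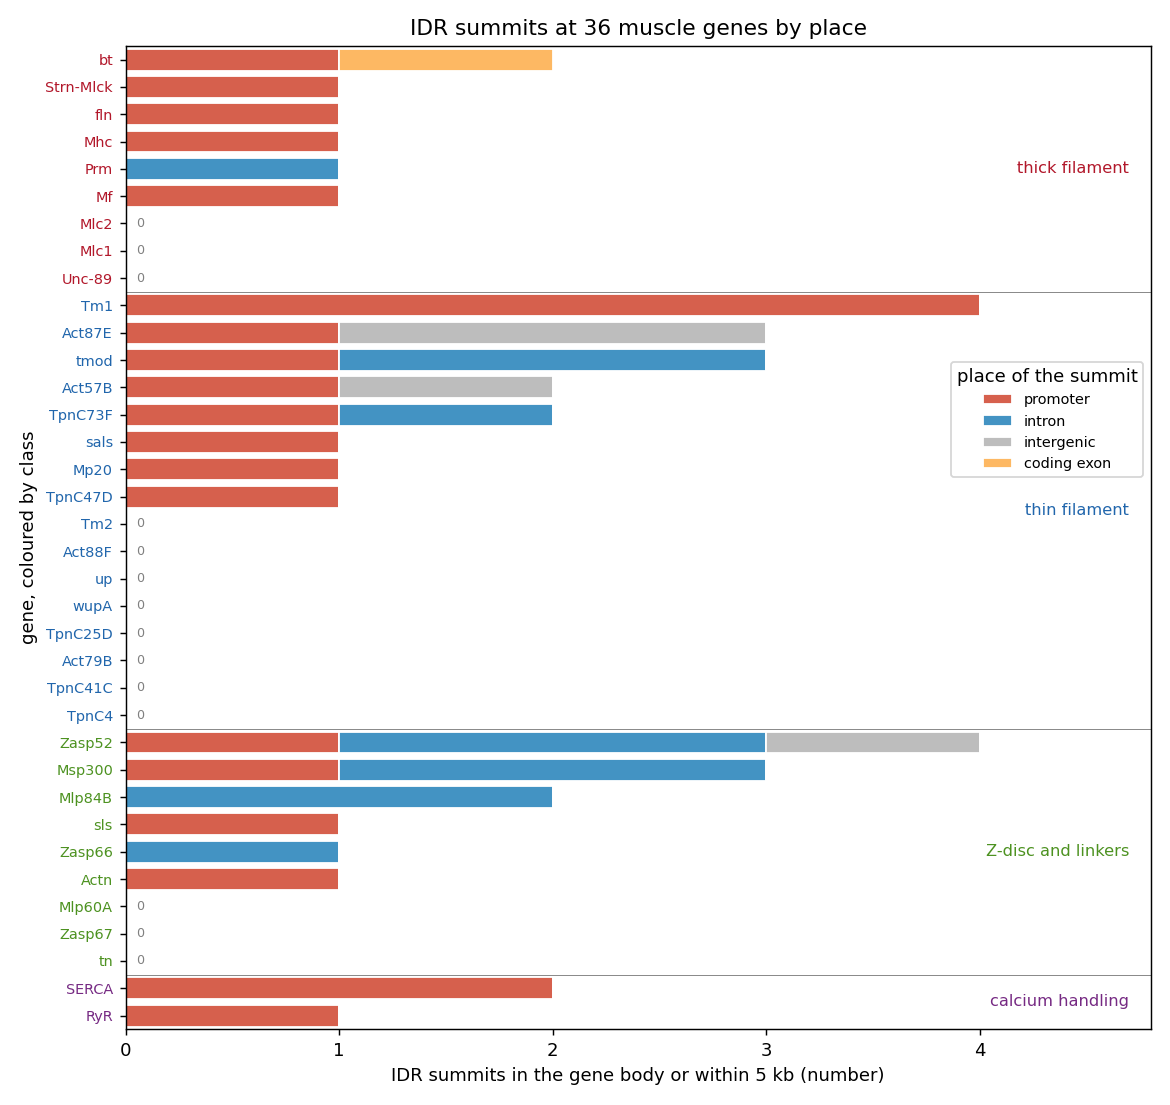
Number of IDR summits assigned (x axis) for each of the 36 genes (y axis, coloured by class), split by the place of the summit. Tm1 and Zasp52 have 4 summits each, and 14 genes have 0.

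In the thick filament, 6 of 9 genes held 7 summits, of which 5 lay in promoters (within 500 bp of any annotated start), 1 in an intron and 1 in a coding exon. Mhc, which encodes the muscle myosin heavy chain, the motor of contraction (2L, 16766566 to 16788766), had a single summit 319 bp upstream of its first start, in a peak from 16766161 to 16766395. It ranked 2952 by signal in the IDR list, 3664 in replicate 1 and 2532 in replicate 2. The summit of Prm, which encodes paramyosin of the thick filament core, lay in an intron 2147 bp from its nearest start and ranked 3366, with 3413 in replicate 1 and 4225 in replicate 2. Mf encodes myofilin, and its summit lay 260 bp inside the gene. That summit ranked 3649 in the IDR list, 3505 in replicate 1 and 4452 in replicate 2. These myosin, paramyosin and myofilin sites ranked around the middle of the IDR list, 3258.5.

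The giant protein genes of the thick filament differed in where their summits lay. The gene bt encodes projectin, an elastic titin-like protein. Its summit at rank 2178 (2369 in replicate 1, 2054 in replicate 2) was 3549 bp upstream, in a coding exon of ey, and the other at rank 5624 was 472 bp from a start of bt. That weaker bt summit ranked 8539 in replicate 1 and 3732 in replicate 2, beyond the first 6516 in replicate 1. The strongest site of the class was assigned to Strn-Mlck, a stretchin gene, at rank 270 (189 and 488 in replicates 1 and 2). It lay 3007 bp upstream of Strn-Mlck and 97 bp from the start of CG8320. The summit assigned to fln, which encodes flightin of flight muscle, ranked 2722 (3489 and 2101) and lay 892 bp upstream, 225 bp from the shared start of Nca and CG7646. No IDR summit was found at Mlc1 and Mlc2, the essential and regulatory myosin light chain genes, or at Unc-89, which encodes obscurin of the M-line.

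In the thin filament, 8 of 16 genes held 17 summits, 11 of them in promoters, 3 in introns and 3 between genes. The actin genes split. Act87E, an actin gene of larval body wall muscle, had the strongest site at a start of any of the 36 genes, 187 bp upstream (3R, 13425262 to 13426186). It ranked 167 in the IDR list, 193 in replicate 1 and 130 in replicate 2. Further Act87E summits at ranks 664 and 2316 (783 and 2817 in replicate 1) lay downstream of the gene in 1 shared peak interval. Replicate 2 had no summit within 100 bp of the former, and its summit at rank 412 lay 92 bp from the latter. Act57B, the other larval actin gene, had a summit 195 bp upstream at rank 3918 (6206 in replicate 1, 2540 in replicate 2). Its stronger summit, at rank 1375 (2147 and 864), lay downstream and 924 bp from the start of CG33704, and held 4 matches to CATATG or CACATG. Act88F, the actin gene of flight muscle, and Act79B, an adult muscle actin gene, had no IDR summit.

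Tropomyosin and troponin genes showed few sites apart from Tm1. Tm1 encodes muscle and cytoskeletal tropomyosins from several starts, and 3 of its 4 summits lay within 500 bp of these. The summits 251 and 45 bp upstream of an internal start ranked 2028 (1764 in replicate 1, 2420 in replicate 2) and 5793 (2431 and 7760). The third, 98 bp upstream of another internal start, ranked 4381 (5006 and 4180) and held CACATG. The fourth and strongest, at rank 144 (94 and 261), was the highest-ranked summit assigned to any of the 36 genes and lay 128 bp from the start of Cp190 and 2851 bp upstream of Tm1 (3R, 15275121 to 15275614). Tm2, the neighbouring tropomyosin gene, had no IDR summit, nor did up and wupA, which encode troponin T and troponin I. Among the troponin C genes, which encode the calcium sensor, TpnC47D had a summit 181 bp upstream at rank 5571 (6305 and 5775). TpnC73F had a promoter summit 307 bp upstream at rank 2843 (2979 and 2683) and an intronic one at rank 3746 (3355 and 4617) with a Mef2 motif. The intronic summit lay 1751 bp from the nearest TpnC73F start and 1601 bp from that of rogdi. TpnC25D, TpnC41C and TpnC4 had no IDR summit.

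The filament length and accessory genes of this class all held a summit. The product of tmod caps the pointed end of the thin filament. Its summits lay in introns at ranks 2010 (1747 and 2727) and 3883 (4792 and 2956), and in the promoter at rank 4598 (3581 and 8781). The product of sals promotes thin filament elongation, and the only summit assigned to it, at rank 3516 (3439 and 4037), lay downstream, 59 bp from the start of Exd2. Mp20 encodes a calponin-like protein, and its summit at rank 4637 (6180 and 3531) lay 1413 bp upstream of its start, in the promoter of a non-coding gene 212 bp away.

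In the Z-disc class, 6 of 9 genes held 12 summits, with 7 in introns of any gene, 4 in promoters and 1 between genes. The gene sls encodes the titin-like Sallimus and kettin proteins that tie thick filaments to the Z-disc. Its single summit lay 266 bp upstream of the start (3L, 2115707 to 2116069) and ranked 780, with 699 in replicate 1 and 954 in replicate 2. Msp300 encodes a giant nesprin that positions nuclei and mitochondria in muscle. Its summits were in an intron at rank 702 (640 in replicate 1, 820 in replicate 2), 352 bp upstream of a start at rank 1151 (860 and 2083), and in an intron at rank 3104 (4105 and 2433). The sls summit and the strongest of Msp300 were, with 2 of Act87E, the 4 among the 1000 highest IDR summits whose nearest protein-coding start was that of the muscle gene.

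The PDZ and LIM domain genes of the Z-disc held sites mostly away from their own starts. Zasp52 had 4 summits, of which that at rank 350 (316 and 418) lay in an intron 14683 bp from its nearest own start. Its promoter summit, 265 bp upstream, ranked 4689 (5323 and 4492) and held CATATG or CACATG. The 2 others lay past the 3′ end of the gene at ranks 2253 (2316 and 2205) and 2644 (4621 and 1511), the latter in an intron of CG30089. Zasp66 had an intronic summit at rank 2596 (2628 and 2763). Both summits assigned to Mlp84B, a muscle LIM protein gene, lay in introns of its neighbour Alh, at ranks 262 (192 and 414) and 2842 (2909 and 2872). The summit in Actn, which encodes the thin filament crosslinker alpha-actinin, ranked 3371 (3711 and 2976) and was 161 bp from the start of usp. Zasp67, Mlp60A and tn, which encodes a TRIM family protein of the muscle fibre, had no IDR summit.

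Both calcium handling genes held a summit. SERCA, the calcium pump of the sarcoplasmic reticulum, had a promoter summit 498 bp upstream at rank 3223 (3871 and 2688). Another SERCA summit, at rank 2339 (2704 and 2163), was 15 bp from the start of CG3735. RyR, the ryanodine receptor, had a summit 41 bp upstream of an internal start at rank 4105 (4786 and 3761). None of these held CATATG or CACATG within 50 bp.

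The classes held summits at 0.273 (thick filament), 0.560 (thin filament), 0.301 (Z-disc) and 0.512 (calcium handling) per 10 kb of gene and flanks. Their median ranks in the IDR list were 2952, 3516, 2424.5 and 3223. Promoter sites were the majority in the thick filament, thin filament and calcium handling classes. In the Z-disc class introns, including those of neighbouring genes, held more sites than promoters. Median gene lengths were 12.5 kb (thick filament), 3.42 kb (thin filament), 18.5 kb (Z-disc) and 19.3 kb (calcium handling). With 3 to 17 summits a class and 1 group, differences between classes were not tested. A summit within 500 bp of an own start was found at 3 of 9 thick filament, 6 of 16 thin filament, 3 of 9 Z-disc and 2 of 2 calcium handling genes.

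Several of the strongest sites assigned to muscle genes lay closer to a neighbour. Of the 39 summits, 28 had a start of one of the 36 genes as their nearest protein-coding start, and 11 had that of another gene. Of the 8 summits among the 1000 highest, 4 had a neighbour's start as the nearest: that of Cp190, Alh, CG8320 or tun. The summit nearest to tun lay in an intron of Zasp52, 3255 bp from the start of tun. Among the 36 genes, 7 held a summit of the 1000 highest (background 12.2% of protein-coding genes). By nearest start, 17 of the 36 genes (47.2%, Wilson interval 32.0 to 63.0%) had a summit, against 23.4% of protein-coding genes. A summit within 500 bp of an own start was found at 14 of the 36 (38.9%, Wilson interval 24.8 to 55.1%), against 20.9%. Within 250 bp, only Act57B (195 bp), Act87E (187 bp), Tm1 (45 bp), TpnC47D (181 bp) and RyR (41 bp) had one. The share of protein-coding genes at 250 bp was not counted, so the difference is given for 500 bp only. The 36 genes had a median of 2.5 distinct starts against 1. Among the 25 with at least 2 starts, 11 had a summit at an own start (44.0%, Wilson interval 26.7 to 62.9%) against 34.1% of such genes, and 13 had one by nearest start (52.0%, 33.5 to 70.0%) against 40.9%. Among the 11 with 1 start, 3 had a summit at it (27.3%, 9.75 to 56.6%) against 16.2%, and 4 had one by nearest start (36.4%, 15.2 to 64.6%) against 17.1%. In both groups the shares stood above the background, with intervals that included it; the part that the number of starts has in the difference over all 36 genes was not tested.

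Promoters held 23 of the 39 summits (59.0%, Wilson interval 43.4 to 72.9%), against 39.5% of all IDR summits and 42.7% of those within 5 kb of a protein-coding gene. Of these 23, 16 were within 500 bp of a start of the muscle gene itself and 7 only within that distance of a start of another gene. Introns held 11 (28.2%, 16.5 to 43.8%) against 38.2%, sequence between genes 4 (10.3%, 4.06 to 23.6%) against 18.4%, and coding exons 1 against 1.23%. Of the 11 in introns, 8 lay inside the muscle gene itself and the others in introns of the neighbours Alh and CG30089. Among the 3258 IDR peaks of higher signal, promoters held 11 of 24 summits at these genes (45.8%, 27.9 to 64.9%) against 38.9% of all, so that interval included the background. With promoters of 250 bp the promoter share was 33.3%, against 30.4% of all IDR summits. The median rank of the intronic sites was 2644 (2909 in replicate 1, 2727 in replicate 2) and that of the promoter sites 3371 (3505 and 2688). The ranks overlapped widely, from 262 to 3883 in introns and from 144 to 5793 in promoters.

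Of the 16 summits at an own start, 15 lay upstream of it, between 41 and 498 bp, and the exception was Mf. Over all protein-coding genes, 85.5% of summits within 500 bp of an own start lay upstream. The median offset was −258 bp for the muscle genes and −130 bp for all genes, where negative values are upstream. Summits over 150 bp upstream made up 12 of 16, against 43.2% over all genes; that distance was chosen after these offsets were seen, so the shares describe them and support nothing.

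**Figure D2:**
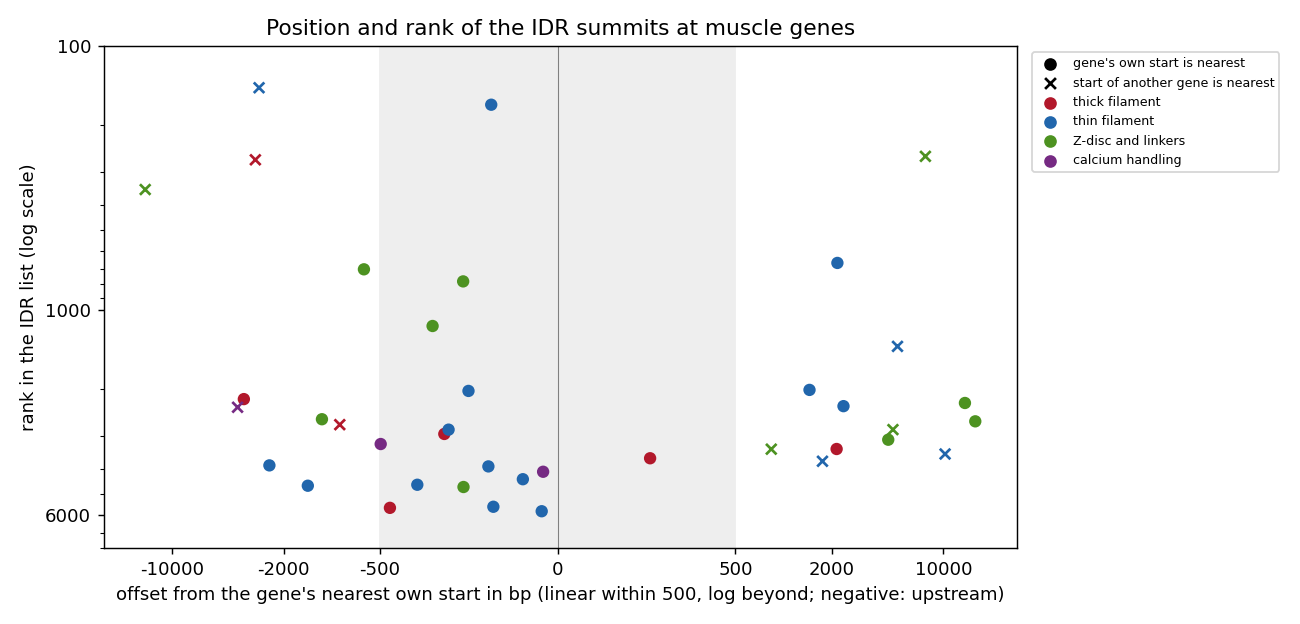
Offset of each of the 39 IDR summits from the nearest start of the muscle gene it was assigned to (x axis, bp, linear within 500 bp and logarithmic beyond, negative upstream) against its rank in the IDR list (y axis, log scale, highest signal on top). Grey shading marks 500 bp around the start, crosses mark summits nearer to a start of another gene, and of the 16 summits in the shading 15 are upstream.

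The E-boxes CATATG and CACATG occurred at the same share of these summits as of all IDR summits. CATATG or CACATG lay within 50 bp of 11 of the 39 (28.2%, Wilson interval 16.5 to 43.8%), against 28.2% of all. CATATG was at 5 of the 39 (12.8%, against 11.6% of all) and CACATG at 7 (17.9%, against 18.9%). By gene, 10 of the 36 held a summit with either motif, against 17.5% of all protein-coding genes, which include many with no summit at all. In promoters 7 of 23 summits held either motif (30.4%, 15.6 to 50.9%) against 17.7% of all promoter summits. In introns 3 of 11 did (27.3%, 9.75 to 56.6%) against 35.6% of all intronic summits. By class, the motifs were at 4 of 7 thick filament, 3 of 17 thin filament, 4 of 12 Z-disc and 0 of 3 calcium handling summits. The first 4 are the sites at Mhc, Prm, Mf and the promoter beside fln, shown above. The highest rank of a summit with either motif was 1375, that of Act57B, so none of the 8 summits among the 1000 highest held one. The share among all of the 1000 highest was not counted, so this count has no background here. Over all IDR summits, the median rank was 2747 with either motif and 3452.5 without. At these genes it was 3104 with and 2327.5 without, and the difference was not tested.

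The Mef2 motif, a 10 bp AT-rich site sought on both strands, lay within 50 bp of 5 of the 39 summits (12.8%, Wilson interval 5.60 to 26.7%), against 5.39% of all IDR summits. They were the promoter summits of Act87E, Act57B and Mf, the intronic summit of TpnC73F and a summit downstream of Zasp52. By gene these are 5 of 36 (13.9%, Wilson interval 6.08 to 28.7%), against 6.54% of protein-coding genes, which that interval includes. At Mf and Zasp52 the same window also held CATATG or CACATG. The lower end of the summits' interval lay just above the background, and without replicate 2 the share was 7.32%, against 5.23% of the summits in the list used there. A match is a run of letters in the reference and does not show that Mef2 protein was bound.

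**Figure D3:**
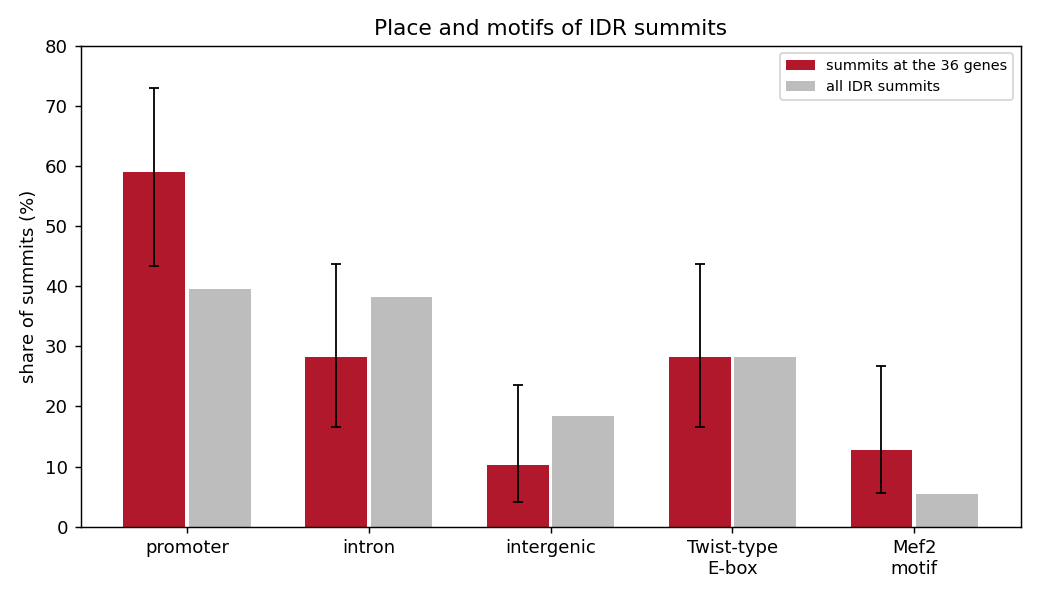
Share of the 39 summits at muscle genes (red, bars with 95% Wilson intervals) and of all 6516 IDR summits (grey) in promoters, introns and between genes, and with CATATG or CACATG or a Mef2 motif within 50 bp (y axis, %). The promoter share of 59.0% stands above 39.5%, and the E-box share is 28.2% for both.

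Some of the strongest sites were rich in A and T. The median GC content of the 101 bp windows was 40.6% at the muscle genes and 41.6% over all IDR summits. It was below 25%, a limit chosen after the values were seen, at 6 of the 39 summits, against 10.9% of all. Of the 8 muscle gene summits among the 1000 highest, 4 were below it, against 14.5% of all in that range. These were the summits near Cp190 (18.8%), in Alh (20.8%), near CG8320 (21.8%) and in the intron of Msp300 (21.8%). Whether base composition bears on their signal was not tested.

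The replicates largely named the same genes. Of the 39 summits, 38 had a summit within 100 bp in the lists of both replicates (97.4%, Wilson interval 86.8 to 99.5%), against 95.4% of all IDR summits; the IDR list was built from these libraries, so this describes the list. Among the 38, 35 ranked within the first 6516 in both replicates. The ranks had a Spearman rho of 0.668 across these 38 sites, and 0.729 across all IDR summits matched in both; sites share the libraries and the control and are not independent. In 11 of the 38 the ranks differed by more than 2 times. Replicate 1 ranked 16 sites higher and replicate 2 ranked 22 higher. These rank counts were not made over all IDR summits. In the 6516 highest peaks of each replicate taken alone, 23 of the 36 genes held a summit in replicate 1 (background 52.1%) and 23 in replicate 2 (background 48.1%). Of these, 22 did in both. Tm2 did in replicate 1 alone, at rank 6196, and Mlc2 in replicate 2 alone, at rank 6164, both near the end of the range. The shares of all protein-coding genes called in both replicates or in 1 alone were not counted, so this overlap describes these genes only.

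**Figure D4:**
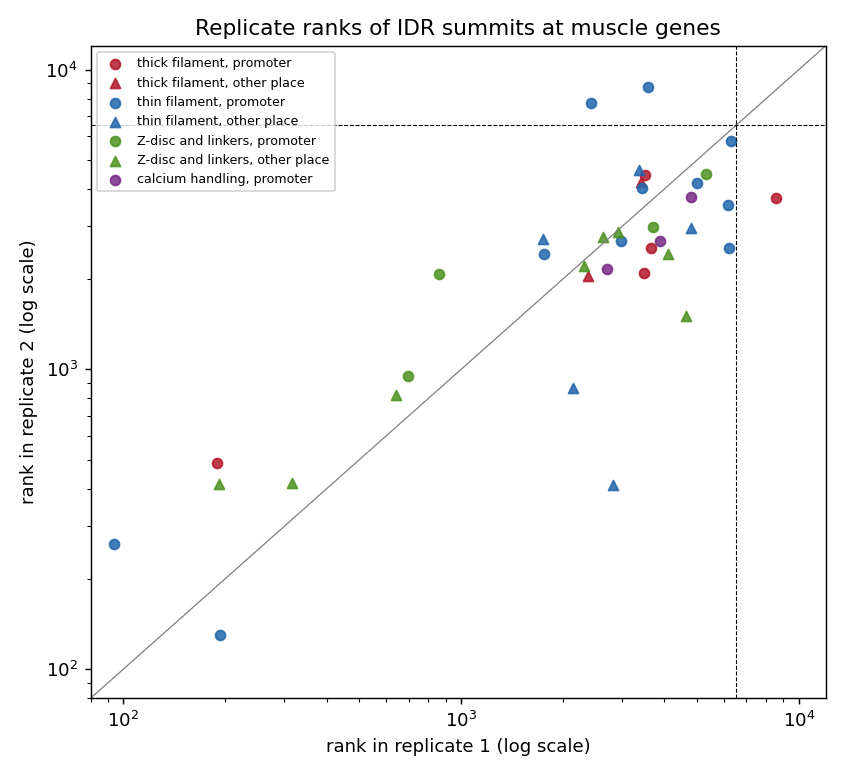
Rank in replicate 1 (x axis, log scale) against rank in replicate 2 (y axis, log scale) of the 38 summits found in both lists, coloured by class and shaped by place. Dashed lines mark rank 6516 and the grey line equal ranks; 35 of the 38 points lie within both dashed lines.

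Below the IDR threshold, some of the other genes held weaker peaks. The list called on both replicates together holds 30000 peaks, and 30 of the 36 genes had a summit in it (83.3%, Wilson interval 68.1 to 92.1%), against 70.4% of protein-coding genes. Of the 14 genes without an IDR summit, 8 were among them. The same share over all protein-coding genes without an IDR summit was not counted. The strongest pooled summits at Mlc2 (rank 6695), Tm2 (6875) and wupA (14361) lay in promoters of the neighbours VhaAC45RP, CG6276 and Mvb12. Weaker pooled summits lay within 500 bp of an own start at these genes too, 1 at Mlc2, 2 at Tm2 and 1 at wupA. At up, which had 2 pooled summits within 500 bp of an own start, the strongest lay 44 bp from its own start, at rank 12899 (14803 in replicate 1 and 11821 in replicate 2), and held CATATG or CACATG. Those of Mlp60A (11187), Act88F (12889), TpnC25D (23874) and Mlc1 (27548) lay over 1 kb from the gene's own starts, and Mlp60A also had 2 pooled summits within 500 bp of one. TpnC25D and Mlc1 had summits in replicate 1 and none in replicate 2. Unc-89, Act79B, TpnC41C, TpnC4, Zasp67 and tn had none in the pooled list. Among these 6, Unc-89 alone had a summit in the replicate lists, at rank 11049 in replicate 1 and 25011 in replicate 2.

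**Figure D5:**
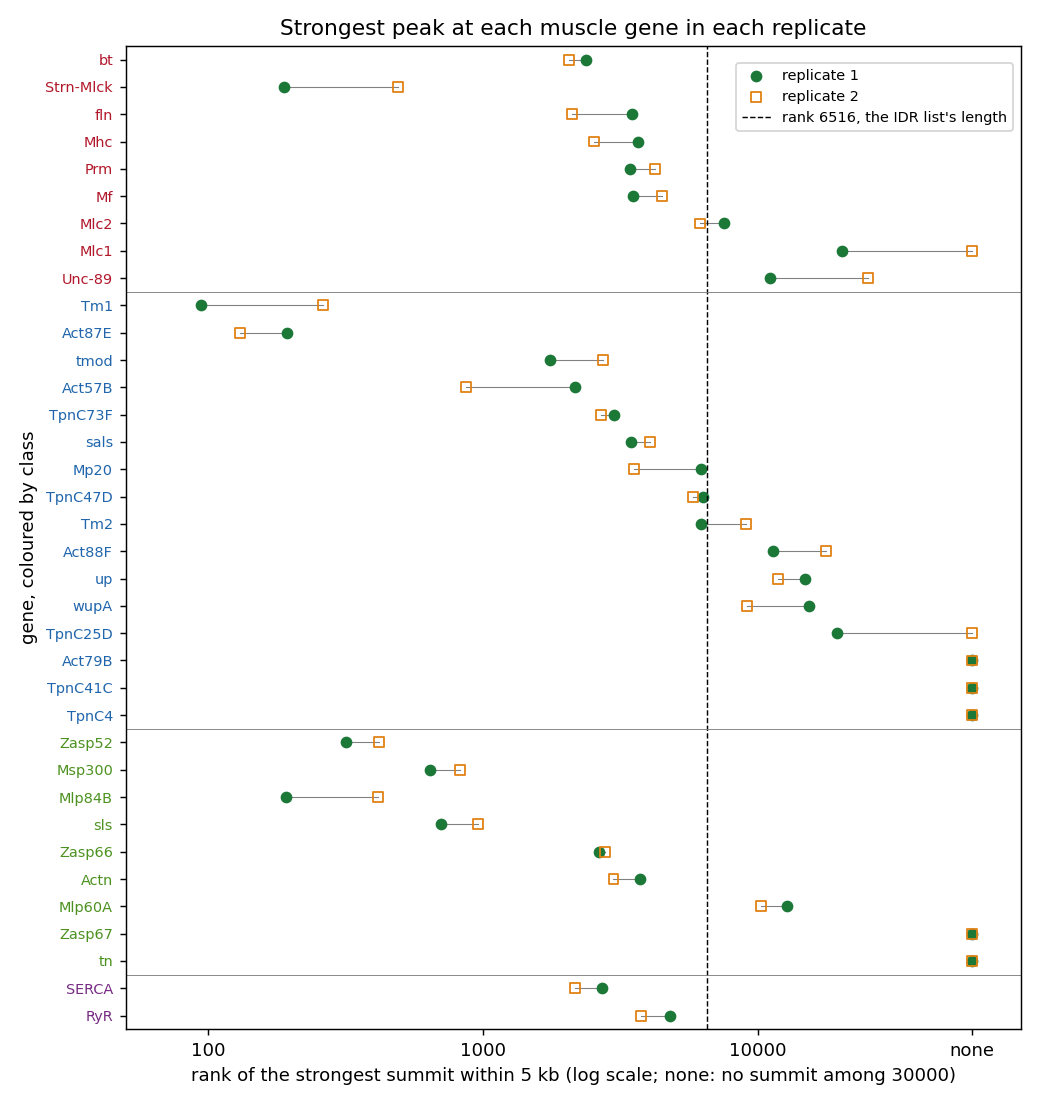
Rank of the strongest summit within 5 kb of each of the 36 genes (y axis) in replicate 1 (filled circles) and replicate 2 (open squares) on a log scale (x axis). Left of the dashed line at rank 6516 lie 23 genes in each replicate, and 5 genes have no summit among 30000 in either.

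Of 23 further genes linked to the cytoskeleton, sarcomere assembly and calcium handling, 22 were matched, and 13 of these held an IDR summit, again near the background of 50.1%. By group these were 3 of 5 cytoplasmic counterparts of muscle proteins, 6 of 8 assembly genes and 4 of 9 calcium genes. The strongest were at Fhos, a formin gene (rank 163), jp, a junctophilin gene (250), and sqh, which encodes the non-muscle myosin regulatory light chain (1052). Act5C, a cytoplasmic actin gene, held 5 summits and Act42A, the other, none.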

How the data were processed

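Peak lists in narrowPeak format (dm6) served as deposited. The records beside them state that 1 control file served both replicates, that the pooled peaks rest on both alignments and that the IDR peaks derive from the other lists. Aligner, peak caller and settings: not given in the sources used here. As the authors' deposited signal, a score per peak, has no stated scale, only ranks were taken from it. The deposited −log10 q-value was at its maximum for 100% of IDR peaks and ranked nothing. Signal tracks and the control were not used here. Depth is unknown, and Wilson intervals cover counting only. The labels give a size range, 200 to 800, without a unit.

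Genes came from Ensembl release 115, sequence from the RefSeq Release 6 assembly, and 0 peaks ran past a chromosome end. Places were assigned in the order promoter, coding exon, UTR, other exon, intron, intergenic. Genes, classes and lists were chosen with earlier results of these data known. Every one of the 36 genes is accounted for; in the list of further genes the 3 with the strongest peak were to be named, and the cytoplasmic actin genes were added after their values were seen. Stac, an ambiguous symbol, was left out. No test was run, since there was 1 group. Python 3.11.15, numpy 2.4.6, pandas 2.3.3, scipy 1.17.1 and matplotlib 3.10.9 were used, and the counting was tested on simulated data.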

Additional observations from a re-analysis of the deposited data

How the results depend on the processing

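No paired analysis was possible because there was 1 group. Of 87 alternative values, 71 stayed within the interval of the reported value or within 1.5 times of a reported count. The number of genes with a summit ran from 15 (the 3258 IDR peaks of higher signal) to 24 (windows of 10 kb), and was 23 without replicate 1 and 23 without replicate 2; the share of all protein-coding genes was 33.5% among the former and 63.7% with the latter. In the pooled list it was 30, where 70.4% of all protein-coding genes had a summit. With windows of 1 kb it was 19 of 36, and there the interval lay above the 30.9% of protein-coding genes, unlike with 5 kb. Distinct summits numbered 24 among the peaks of higher signal, 59 with windows of 10 kb and 223 in the pooled list, an alternative chosen after seeing the data, and summits per 10 kb were 0.236 among the former and 2.21 in the pooled list. Genes whose own start was nearest to a summit numbered 11 among the peaks of higher signal and 28 in the pooled list. The shares of all protein-coding genes by nearest start in both lists were not counted. Thin filament genes with a summit numbered 5 and 13 in these lists, and calcium handling genes 1 among the peaks of higher signal and 4 when the TpnC genes were counted with them. The promoter share was 33.3% with promoters of 250 bp and 39.5% in the pooled list, where 29.4% of all peaks lay in promoters. The share with CATATG or CACATG was 12.8% within 25 bp, against 17.4% of all IDR summits. The share held by both replicate lists was 82.1% with matching within 50 bp and 100% within 200 bp. Apart from the calcium handling count with the TpnC genes, the counts that moved were from settings that changed the number of peaks or the length of sequence. The cause of the moved promoter share in the pooled list was not tested. Peak lists give no read counts, so a missing summit shows only that none passed into the list.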
